A study of Rattus norvegicus with 20 samples.

Results

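Secretin, guanylate cyclase C and the partners of both were followed across 20 arrays of cultured rat islets. The members are 5 genes: the hormone gene Sct, its receptor gene Sctr, the receptor gene Gucy2c, and the guanylin and uroguanylin genes Guca2a and Guca2b. Each has 1 probe set, so the description rests on 5 of 31099 probe sets, and on 5 of 14217 genes measured. The genes were chosen by their measured intensities: Sct and Gucy2c stood among the largest differences between islets given a receptor virus and islets given a GFP virus. Their differences from GFP are therefore given as a description, without a test, and the same was done for the other 3 genes.

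Secretin is a peptide hormone that S cells of the duodenum release when acid arrives from the stomach. Its receptor, a class B receptor coupled to cyclic AMP, sits on pancreatic duct cells, which answer with a bicarbonate-rich fluid. In rodents secretin is also made for a time in the developing islet. Guanylate cyclase C is a receptor of the intestinal epithelium that makes cyclic GMP when guanylin, uroguanylin or a heat-stable bacterial toxin binds, which leads to secretion of chloride and bicarbonate.

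The islets came from male Wistar rats aged 8 weeks and were kept in medium with 8 mM glucose and 10% serum. Of the 4 groups of 5 arrays, 1 received an adenovirus for Nr4a1, 1 an adenovirus for Nr4a3, 1 an adenovirus for GFP, and 1 stayed untreated. Nr4a1 and Nr4a3 encode nuclear receptors of the NR4A family, transcription factors with no settled ligand. Virus was left on for 18 h and islets were collected 48 h after it was added. The labels' treatment protocol names other viruses (beta-galactosidase and Nkx6.1) than the titles do; groups follow the titles. The titles call the 5 arrays of a group biological replicates. Neither the promoter in each virus nor the animals behind each sample are stated in the labels, so p-values measure the spread between these samples.

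Whole islets were measured. The lowest linear value of any of 11 measured beta cell markers was 498 in the Nr4a1 arrays, 262 in the Nr4a3 arrays, 963 in the GFP arrays and 933 in the untreated arrays. Their summed linear intensity ran from 96861 to 110443 for Nr4a1, 81980 to 114623 for Nr4a3, 109090 to 116706 for GFP and 107403 to 119828 for untreated islets. Nr4a3 replicate 2 stood apart. Its mean correlation with the other arrays across genes, which are not independent, was 0.941, against 0.982 to 0.989 for the rest, and its 3' minus 5' difference for the beta-actin controls was 4.62 on the log2 scale against at most 2.21 in the rest. The Nr4a1 probe set did not follow the labels, with a log2 difference from GFP of -0.07 ± 0.09 (SE, n = 5 each) in the arrays labelled Nr4a1. The brightest of 3 Nr4a3 probe sets differed by 0.19 ± 0.10 in the arrays labelled Nr4a3 (limma adjusted p = 0.421) and by 0.44 ± 0.10 in those labelled Nr4a1 (adjusted p = 0.00562). The labels do not say whether these probe sets match the sequence in each virus, and they therefore test neither labels nor delivery. Group names below are those of the labels.

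Sct stood far above both control groups in every array labelled Nr4a1 or Nr4a3. Its log2 intensities were 9.97, 9.62, 9.20, 9.49 and 9.29 in Nr4a1 replicates 1 to 5, and 10.40, 8.63, 10.17, 8.41 and 9.07 in Nr4a3 replicates 1 to 5. They were 5.79, 5.09, 5.23, 5.44 and 6.15 in the GFP arrays and 5.39, 5.58, 5.89, 5.68 and 5.93 in the untreated arrays. The lowest of the 10 receptor arrays, Nr4a3 replicate 4, lay 2.27 above the highest control array, GFP replicate 5, a 4.81-fold gap. Group means were 9.51 ± 0.30 (SD, log2, n = 5) in the Nr4a1 arrays, 9.34 ± 0.90 in the Nr4a3 arrays, 5.54 ± 0.43 in the GFP arrays and 5.69 ± 0.22 in the untreated arrays. The geometric mean of the linear intensity was 730.2 for Nr4a1 and 647 for Nr4a3, against 46.5 for GFP and 51.8 for untreated islets. In bulk RNA, more cells that make a transcript and more transcript per cell cannot be told apart.

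Gucy2c gave the same grouping of arrays. Its log2 intensities were 10.53, 10.42, 10.36, 10.50 and 10.01 in Nr4a1 replicates 1 to 5, and 10.68, 8.78, 10.42, 9.76 and 10.23 in Nr4a3 replicates 1 to 5. They were 6.14, 6.28, 6.11, 6.95 and 6.49 in the GFP arrays and 6.93, 6.46, 5.93, 6.51 and 6.59 in the untreated arrays. The 10 receptor arrays did not overlap the 10 control arrays here either. The share of all genes that separate these 2 sets of 10 arrays was not counted. The gap between Nr4a3 replicate 2 and GFP replicate 4 was 1.84 (3.58-fold). Group means were 10.36 ± 0.21 (SD, log2, n = 5) in the Nr4a1 arrays, 9.98 ± 0.75 in the Nr4a3 arrays, 6.39 ± 0.34 in the GFP arrays and 6.49 ± 0.36 in the untreated arrays.

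**Figure D1:**
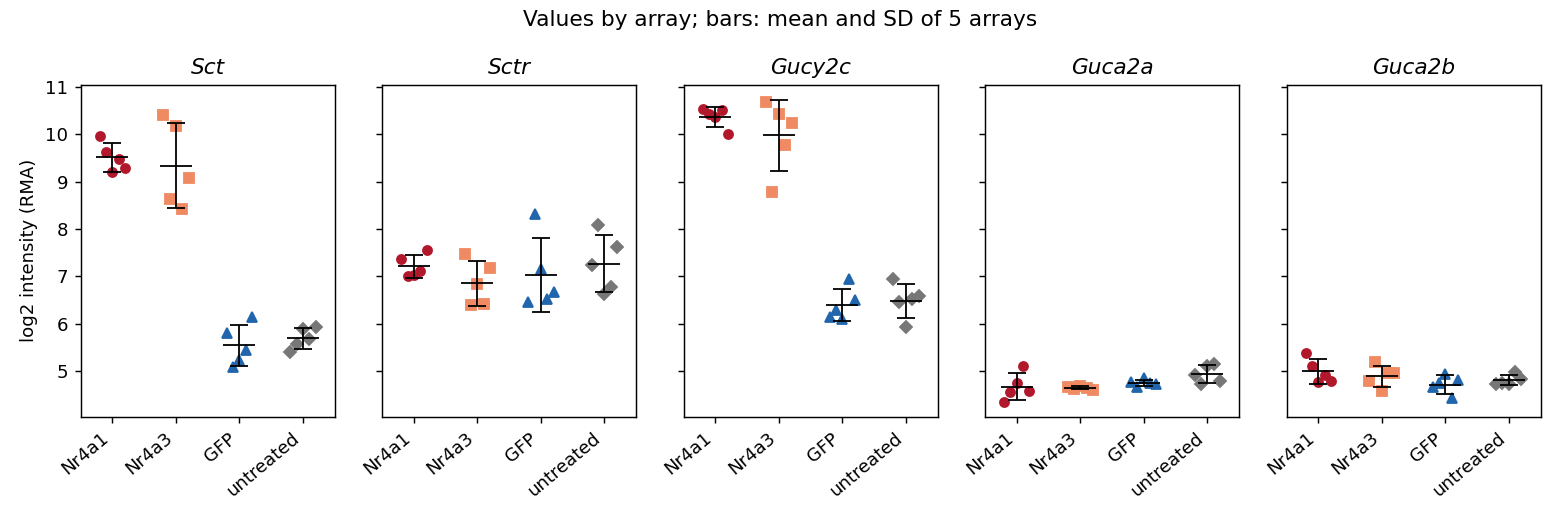
Log2 intensity of the 5 genes in each of the 20 arrays, by group, with the mean and SD of 5 arrays as bars. Sct and Gucy2c lie above 8.4 in all 10 arrays labelled Nr4a1 or Nr4a3 and below 7 in all 10 GFP and untreated arrays. For Sctr, Guca2a and Guca2b these 2 sets of 10 arrays overlap. Guca2a is lower in every Nr4a3 array than in any untreated array, a separation that was not tested.

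Relative to GFP, the Sct difference was 3.97 ± 0.31 (log2 ± SE) for Nr4a1 and 3.80 ± 0.31 for Nr4a3, and the Gucy2c difference was 3.97 ± 0.27 and 3.58 ± 0.27 for the same groups. Only 15 genes were higher by a log2 of 3 or more for Nr4a1, and 4 for Nr4a3, and both genes are in either count. These contrasts share the GFP arrays and chose the genes. Nothing is therefore read from the fact that both belong to the 8.71% of genes called for Nr4a1 and the 1.93% called for Nr4a3 at a limma adjusted p under 0.05, or to the 16.2% and 4.63% whose groups do not overlap. The untreated arrays are a second set of controls, but the receptor arrays in the following values are the ones that chose the genes, so these too are a description. Relative to untreated islets, Sct was higher by 3.82 (14.1-fold) in the Nr4a1 arrays and by 3.64 (12.5-fold) in the Nr4a3 arrays, and Gucy2c by 3.88 (14.7-fold) and 3.49 (11.2-fold).

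The 2 receptor viruses were then set against each other. Sct and Gucy2c were chosen for high values in both groups, which bears on this difference, and its test is read with that limit. Sct was 0.17 ± 0.31 higher (log2 ± SE, 95% interval -0.47 to 0.82) for Nr4a1 than for Nr4a3 (limma adjusted p = 0.827, n = 5 each). Nr4a3 replicates 1 and 3 lay above every Nr4a1 array, and replicates 2, 4 and 5 below every one. Gucy2c was 0.39 ± 0.27 higher (interval -0.17 to 0.94, limma adjusted p = 0.556). None of the 5 members was called in this comparison, in which 0.633% of genes were. The means of Nr4a1 and Nr4a3 arrays, neighbours at the top of the order for both genes, were not told apart by this test, and the intervals leave room for differences up to their bounds. Without Nr4a3 replicate 2 the difference was -0.00 for Sct and 0.09 for Gucy2c.

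The Nr4a3 group varied more than the Nr4a1 group for both genes, and in part in the same arrays. Nr4a3 replicates 1 and 3 were the highest of their group for Sct and for Gucy2c, replicate 5 was the middle one, and replicates 2 and 4 were the lowest. In the arrays labelled Nr4a1, replicate 1 was the highest for both genes, while replicate 3 was the lowest for Sct and replicate 5 for Gucy2c. With Nr4a3 replicate 2 left out, the group averaged 9.52 ± 0.94 (SD, log2, n = 4) for Sct and 10.27 ± 0.39 for Gucy2c. The differences from GFP were then 3.97 and 3.88.

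**Figure D2:**
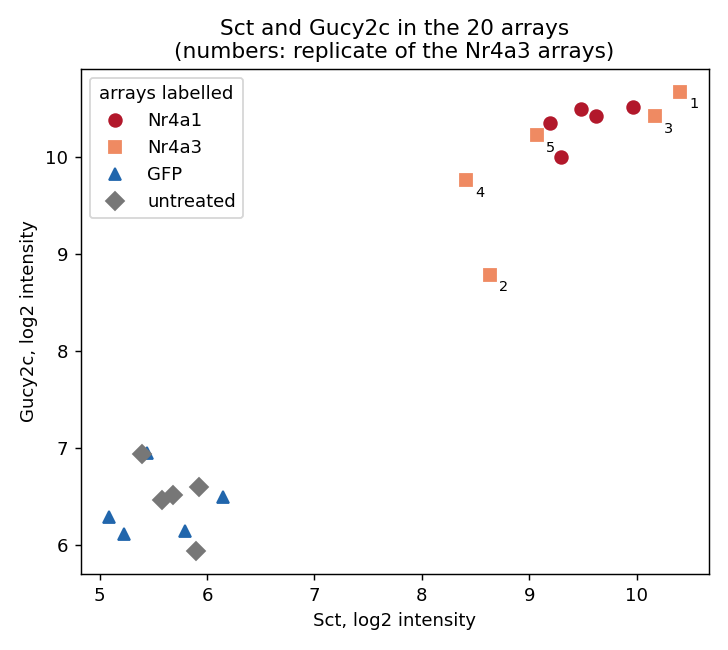
Log2 intensity of Gucy2c against Sct in the 20 arrays, with the replicate number beside each Nr4a3 array. Arrays labelled Nr4a1 or Nr4a3 form a cluster in the upper right, in which Nr4a3 replicates 2 and 4 are lowest for both genes, and GFP and untreated arrays share the lower left.

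GFP virus and untreated islets, neighbours at the low end for both genes, were compared next, to see what a virus alone goes with. Sct and Gucy2c were chosen by their difference from these GFP arrays, which bears on this comparison, and its test is read with that limit. Sct differed by -0.15 ± 0.31 (GFP minus untreated, log2 ± SE, 95% interval -0.80 to 0.49) and Gucy2c by -0.09 ± 0.27 (-0.65 to 0.47), each with a limma adjusted p of 0.9997 (n = 5 each). Across all genes limma called 0 (0%), with 412 (2.9%) at an unadjusted p under 0.05, none of them a member. Under each of the 30 alternative settings the count was also 0. Both control groups had a Sct signal between the 24.9 and 41.8 percentile of the probe sets of their arrays, and both receptor groups one between the 74.8 and 93.7 percentile. Detection calls were not used here, so the percentile places a signal on its array's scale and does not say whether any transcript was present.

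The secretin receptor gene showed no such grouping. Sctr had log2 intensities of 7.35, 7.002, 7.02, 7.10 and 7.56 in the Nr4a1 arrays and 7.47, 6.39, 6.84, 6.41 and 7.18 in the Nr4a3 arrays, against 6.47, 8.32, 7.16, 6.53 and 6.67 in the GFP arrays and 7.25, 8.08, 6.62, 6.77 and 7.63 in the untreated arrays. All 4 groups overlap. The differences from GFP were 0.18 ± 0.32 (log2 ± SE) for Nr4a1 and -0.17 ± 0.32 for Nr4a3, both within the spread of the GFP arrays (SD 0.77). Both this spread and the differences depended on GFP replicate 2, which at 8.32 lay above the other GFP arrays (6.47 to 7.16). Without it the difference grew to 0.51 ± 0.27 for Nr4a1 and turned sign to 0.15 ± 0.27 for Nr4a3. Between Nr4a1 and Nr4a3 arrays Sctr differed by 0.35 ± 0.32 (limma adjusted p = 0.652), and between GFP and untreated arrays by -0.24 ± 0.32 (adjusted p = 0.9997). The highest values were those of GFP replicate 2 and untreated replicates 2 and 5. The mean of the duct cell markers was also highest in these arrays within their groups, at 8.45, 8.53 and 8.52. The other GFP arrays had 7.96 to 8.29 and the other untreated arrays 7.98 to 8.21. Duct marker means of the Nr4a1 arrays were 8.44 to 8.74, with Sctr between 7.002 and 7.56. Of the 12 markers in that mean, only Car2 and Tff2 were called higher than in GFP, as were 6.16% of all genes. The median difference of the 12 was 0.06. The part of duct cells in these values was not tested.

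Both ligand genes of guanylate cyclase C stayed dim. Guca2a, which encodes guanylin, had log2 intensities of 4.35, 4.56, 4.74, 5.11 and 4.58 in the Nr4a1 arrays and 4.67, 4.63, 4.68, 4.65 and 4.61 in the Nr4a3 arrays, against 4.77, 4.67, 4.85, 4.74 and 4.73 in the GFP arrays and 4.91, 4.72, 5.11, 5.15 and 4.80 in the untreated arrays. Its differences from GFP were -0.08 ± 0.11 for Nr4a1 and -0.11 ± 0.11 for Nr4a3 (log2 ± SE). The Nr4a3 arrays had the smallest spread of the 4 groups (SD 0.03). All 5 lay below every untreated array, with a mean log2 difference of -0.29 that was not tested. Guca2b, which encodes uroguanylin, had 5.39, 5.10, 4.78, 4.91 and 4.79 in the Nr4a1 arrays and 4.80, 5.18, 4.57, 4.95 and 4.95 in the Nr4a3 arrays, against 4.67, 4.76, 4.93, 4.42 and 4.80 in the GFP arrays and 4.73, 4.75, 4.72, 4.98 and 4.84 in the untreated arrays. Its differences from GFP were 0.28 ± 0.12 and 0.18 ± 0.12 for Nr4a1 and Nr4a3, with overlap of the groups in both. Between Nr4a1 and Nr4a3 arrays neither gene was called (log2 difference 0.02 for Guca2a and 0.10 for Guca2b, limma adjusted p = 0.944 and 0.743), nor between GFP and untreated arrays (-0.19 and -0.09, adjusted p = 0.9997 for each). Both probe sets stayed at or below the 29.3 percentile of the probe sets of every array.

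Acinar cell markers moved most with the Nr4a1 label and so stand beside Sct and Gucy2c. Of 22 measured markers, 19 were called higher and 0 lower in the Nr4a1 arrays against GFP. In the Nr4a3 arrays 1 was called higher, Cuzd1. Of all genes, 6.16% were called higher for Nr4a1 and 1.75% for Nr4a3. The log2 differences of the markers from GFP ran from -0.11 to 3.59 for Nr4a1, with a median of 2.54. For Nr4a3 they ran from -0.05 to 2.48, with a median of 0.85. Summed linear intensity of the list ran from 36773 to 87275 for Nr4a1, 17991 to 32926 for Nr4a3, 4183 to 25923 for GFP and 4711 to 56357 for untreated islets. Untreated replicate 5 had an acinar mean of 10.21 on the log2 scale, above Nr4a1 replicates 2 and 3 (9.66 and 9.89) and every Nr4a3 array (8.63 to 9.45). In that array Sct was 5.93, the highest of the untreated arrays, and Gucy2c 6.59, the second highest. GFP replicate 4, with an acinar mean of 9.21, exceeded 4 of the 5 Nr4a3 arrays in this mean and had Sct at 5.44 and Gucy2c at 6.95.

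**Figure D3:**
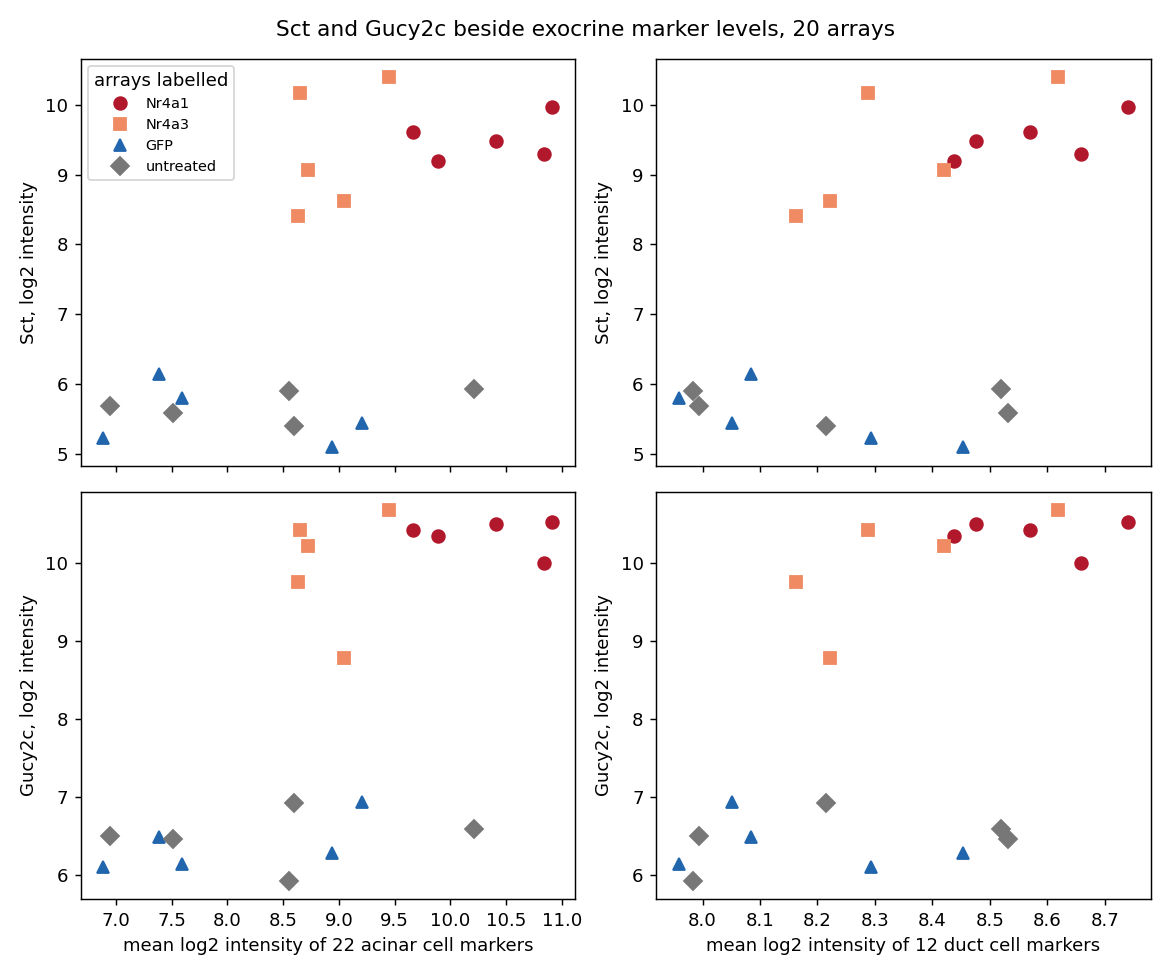
Log2 intensity of Sct (top) and Gucy2c (bottom) against the mean log2 intensity of 22 acinar (left) and 12 duct (right) cell markers in the 20 arrays. The acinar means of the Nr4a1 arrays reach highest, and untreated replicate 5 has an acinar mean of 10.21 and a Sct value of 5.93.

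Of 12 duct cell markers measured, 2 were called higher in the Nr4a1 arrays, Car2 and Tff2, and 1 in the Nr4a3 arrays, Car2, with 0 lower in both. The shares of all genes called higher were 6.16% for Nr4a1 and 1.75% for Nr4a3. The summed linear intensity of the duct list ran from 15938 to 19631 for Nr4a1 and 10053 to 19161 for Nr4a3, against 12478 to 17648 for GFP and 12499 to 19199 for untreated islets. Intestinal epithelium, the main site of Gucy2c, was represented by 11 measured markers. Of these, Cdh17, an intestinal cadherin gene, was called higher in the Nr4a1 arrays (6.20 ± 0.59 against 5.05 ± 0.16 in GFP, SD, log2, n = 5 each, difference 1.15 ± 0.25 SE, limma adjusted p = 0.00476). None was called in the Nr4a3 arrays, where Cdh17 differed by 0.58 (limma adjusted p = 0.311). A count of 1 of 11 for Nr4a1 is near the 6.16% of all genes and is not read as a change of the list. The summed linear intensity of the intestinal list was 1630 to 2405 in the Nr4a1, 1425 to 2661 in the Nr4a3, 1667 to 2611 in the GFP and 1530 to 2495 in the untreated arrays. Cdx2, the intestinal transcription factor gene, differed from GFP by 0.02 for Nr4a1 and 0.26 for Nr4a3, and neither passed (limma adjusted p = 0.981 and 0.489). The value for Nr4a3 was 0.09 without replicate 2 of that group. Markers of other cells fell in part: 5 of 11 beta cell and 7 of 11 endothelial markers were called lower in the Nr4a1 arrays, and 0 and 2 in the Nr4a3 arrays. Of all genes, 2.55% were called lower for Nr4a1 and 0.176% for Nr4a3. In both groups 0 were called of 12 fibroblast and stellate, 12 macrophage and leukocyte and 7 other islet hormone cell markers. The part of cell makeup in the Sct and Gucy2c values was not tested beyond these levels.

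Genes around the 2 receptors were read next, from 8 lists with 118 genes, 108 of them measured. Against GFP, 3 rose and 5 fell in the Nr4a1 arrays, and 1 rose and 2 fell in the Nr4a3 arrays at a limma adjusted p under 0.05. Of all genes, 6.16% were called higher and 2.55% lower for Nr4a1, and 1.75% and 0.176% for Nr4a3. The median log2 difference over the 108 genes was -0.03 for Nr4a1 and 0.00 for Nr4a3, and over all genes it was 0.00 in both. None of the 108 was called between Nr4a1 and Nr4a3 or between GFP and untreated arrays.

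Car2, the cytosolic carbonic anhydrase that supplies bicarbonate in duct cells, rose in both. It had 11.59, 11.22, 10.57, 11.13 and 10.85 (log2) in the Nr4a1 arrays and 10.55, 11.05, 10.54, 9.77 and 10.35 in the Nr4a3 arrays, against 8.81, 8.96, 9.08, 8.90 and 8.57 in the GFP arrays and 8.89, 9.09, 8.66, 9.05 and 9.08 in the untreated arrays. No array of either receptor group overlapped a control array, and the share of all genes with this separation was not counted. The rise was 4.62-fold (log2 2.21 ± 0.19 SE, limma adjusted p = 3.83e-07) for Nr4a1 and 3.01-fold (1.59 ± 0.19, adjusted p = 0.000168) for Nr4a3. A dimmer Car2 probe set was higher by 2.30 and 1.33, called in both fits over all probe sets. Nr4a3 replicate 2, which was low for Gucy2c, was the highest of its group for Car2.

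Of the other fluid transport genes 1 was called. Nherf1, which encodes a scaffold that binds the chloride channel CFTR, rose by 0.58 ± 0.10 in the Nr4a1 arrays (log2 ± SE, limma adjusted p = 0.00112) and differed by 0.28 ± 0.10 in the Nr4a3 arrays (adjusted p = 0.208). Its second probe set differed by 0.18 for Nr4a1 and was not called (limma adjusted p = 0.600 over all probe sets). Cftr itself differed by 0.19 and 0.09 and the sodium bicarbonate cotransporter gene Slc4a4 by 0.09 and 0.15 for Nr4a1 and Nr4a3, none of them called. Without Nr4a3 replicate 2 the values for Nr4a3 were -0.00 for Cftr and -0.02 for Slc4a4. In all, 2 of 14 measured transport genes rose for Nr4a1 and 1 for Nr4a3, with 0 lower and medians of 0.05 and 0.06.

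Of 5 secretin family peptide genes, which were Gcg, Gip, Vip, Adcyap1 and Ghrh, 0 were called for either virus, with medians of 0.13 for Nr4a1 and 0.10 for Nr4a3. Of 12 class B receptor genes 2 fell for Nr4a1 and 1 for Nr4a3, and 0 rose (median -0.04 and -0.02). Gipr, the receptor for the incretin GIP, was lower by a log2 of -0.76 ± 0.12 for Nr4a1 (limma adjusted p = 0.00032) and -0.64 ± 0.12 for Nr4a3 (adjusted p = 0.00563). Gcgr, the glucagon receptor gene, changed by -0.60 ± 0.14 for Nr4a1 (limma adjusted p = 0.0102) and by -0.44 ± 0.14 for Nr4a3, where it was not called (adjusted p = 0.145). Glp1r, the GLP-1 receptor gene, differed by -0.55 ± 0.27 and -0.49 ± 0.27 and was not called (limma adjusted p = 0.260 and 0.472). Without Nr4a3 replicate 2 the value for Nr4a1 was called (limma adjusted p = 0.0115), and that for Nr4a3 was -0.14 ± 0.15 (adjusted p = 0.751). Of 9 other gut peptide hormone genes 0 were called, with medians of 0.02 and 0.00. Penk, the enkephalin precursor gene, came nearest at 0.78 ± 0.24 for Nr4a1 (limma adjusted p = 0.0517). It was called without Nr4a1 replicate 3 (limma adjusted p = 0.000951) or Nr4a3 replicate 2 (adjusted p = 0.0239), and also with the replicate block (adjusted p = 0.0464), with array weights and with dim genes left out.

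None of the other guanylate cyclase genes was called. Of 14 genes for guanylate cyclases, natriuretic peptides and their receptors, 0 were called for either virus, and their log2 differences ran from -0.47 to 0.14 for Nr4a1 and from -0.16 to 0.17 for Nr4a3. Among 18 genes that answer to or break down cyclic GMP, 1 rose and 2 fell for Nr4a1, and 0 and 1 for Nr4a3 (medians -0.04 and -0.10). Pde9a, a phosphodiesterase gene specific for cyclic GMP, rose by 1.05 ± 0.28 in the Nr4a1 arrays (log2 ± SE, 2.07-fold, limma adjusted p = 0.0206). Leaving out Nr4a1 replicate 2, 4 or 5, or GFP replicate 1 or 4, ended that call, at limma adjusted p-values of 0.0514 to 0.0641. In the Nr4a3 arrays Pde9a differed by 0.64 ± 0.28 (adjusted p = 0.321).

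Pde2a, whose enzyme is activated by cyclic GMP, was lower by a log2 of -0.46 ± 0.11 for Nr4a1 (limma adjusted p = 0.0127), and it differed by -0.34 ± 0.11 for Nr4a3 (adjusted p = 0.163). Pde10a, a phosphodiesterase gene for both cyclic nucleotides, changed by -0.49 ± 0.10 for Nr4a1 (limma adjusted p = 0.00388) and by -0.40 ± 0.10 for Nr4a3 (adjusted p = 0.047). The call for Nr4a3 ended in 19 of 30 alternatives, 14 of which leave out 1 array (limma adjusted p up to 0.137) and 1 of which is the replicate block (adjusted p = 0.0889). Prkg2, the cyclic GMP kinase that acts below guanylate cyclase C in the gut, differed by -0.10 in both and was not called. Of 26 genes that make cyclic AMP or respond to it, 0 were called for either virus (medians -0.09 and -0.03). Adcy6, an adenylate cyclase gene, differed by 0.67 ± 0.26 for Nr4a1 (limma adjusted p = 0.124, and 7.31e-06 without Nr4a3 replicate 2) and by -0.01 ± 0.26 for Nr4a3 (adjusted p = 0.994). Nr4a3 replicate 2 was low, at 8.23 against 9.98 to 10.42 in the other Nr4a3 arrays. Without it Adcy6 was called for Nr4a3 too, at 0.38 ± 0.08 (limma adjusted p = 0.0142).

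**Figure D4:**
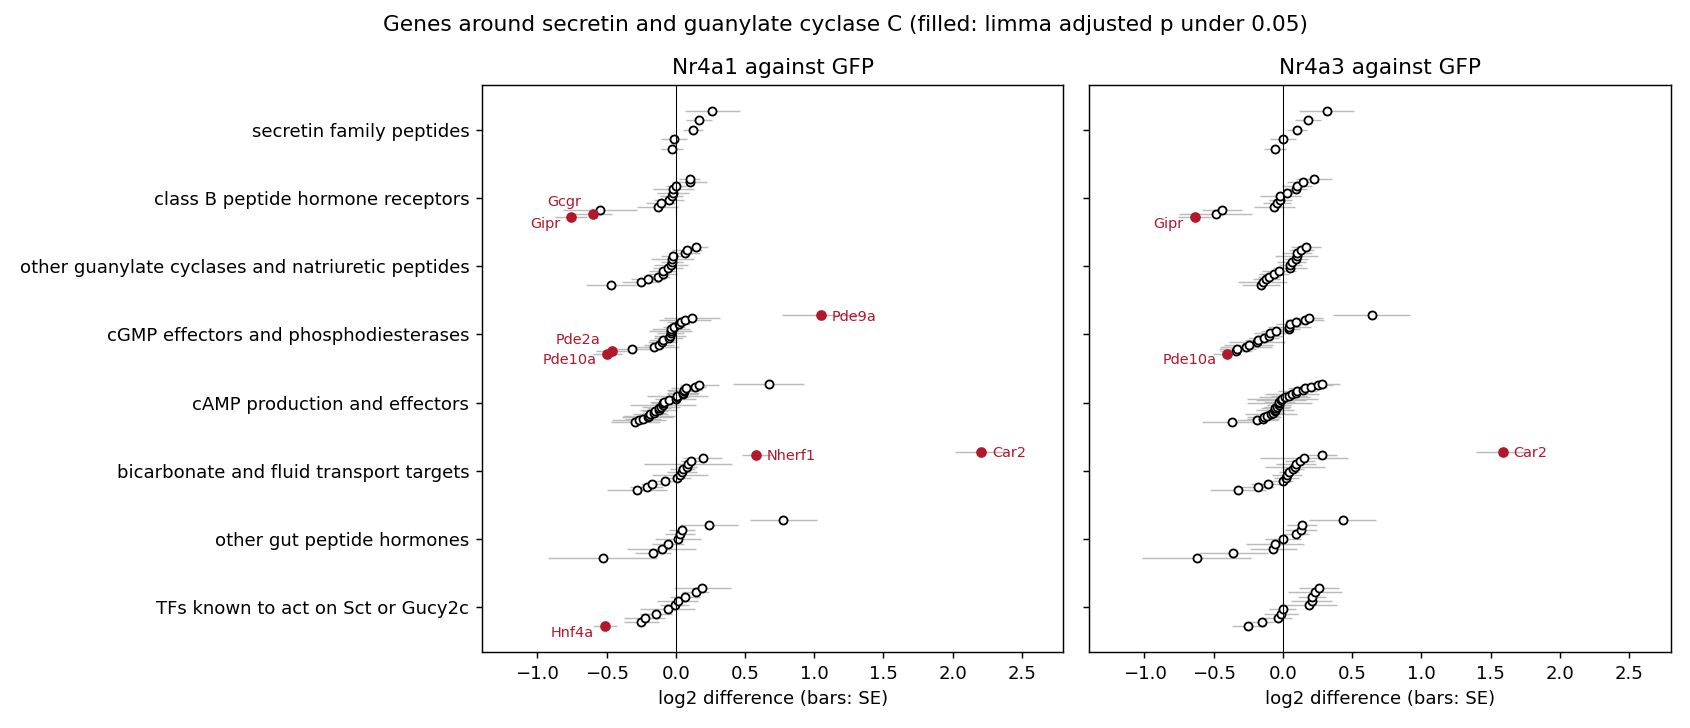
Log2 differences from GFP (bars: SE, n = 5 per group) of the measured genes of 8 lists around secretin and guanylate cyclase C, for Nr4a1 (left) and Nr4a3 (right). Filled and named points passed limma at an adjusted p under 0.05: Car2 at 2.21 and 1.59 stands apart, and most genes lie near 0.

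Of 10 measured genes for transcription factors known to act on Sct or Gucy2c, 1 fell for Nr4a1 and 0 were called for Nr4a3. Hnf4a, a nuclear receptor gene of liver, gut and islet, changed by -0.51 ± 0.09 for Nr4a1 (log2 ± SE, limma adjusted p = 0.000956), but its other 2 probe sets differed by -0.03 and 0.01, and the mean of its 3 probe sets was not called (adjusted p = 0.0638). Neurod1, which drives the secretin gene in enteroendocrine cells, differed by -0.25 ± 0.13 for Nr4a1 and was not called (limma adjusted p = 0.287). It was called lower with only the arrays compared and with array weights (limma adjusted p of 0.0246 to 0.0365). Without Nr4a3 replicate 2 it was not called (limma adjusted p = 0.0512).

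Genes of the most similar pattern were found by the root mean square difference of centred log2 values over the 20 arrays, a description of these arrays. The values that chose Sct and Gucy2c enter this measure, so genes with similarly large differences from GFP stand near them by construction. The order is therefore no separate evidence of a link between these genes. Gucy2c was the nearest of all other genes to Sct, at 0.44, ahead of Nnat at 0.49, Ddit4l at 0.60, Gas2 at 0.89 and Igfbp3 at 0.95, and the median over all genes was 1.98. For Gucy2c the order was Nnat at 0.38, Sct at 0.44, Ddit4l at 0.61, Gas2 at 0.83 and Igfbp3 at 0.89, with a median over all genes of 1.93. The same 5 genes came first in both cases without Nr4a3 replicate 2. Nnat, the neuronatin gene, differed from GFP by 3.81 for Nr4a1 and 3.21 for Nr4a3, Ddit4l by 4.09 and 3.01, Gas2 by 3.56 and 1.91, and Igfbp3 by 2.42 and 2.97.

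**Figure D5:**
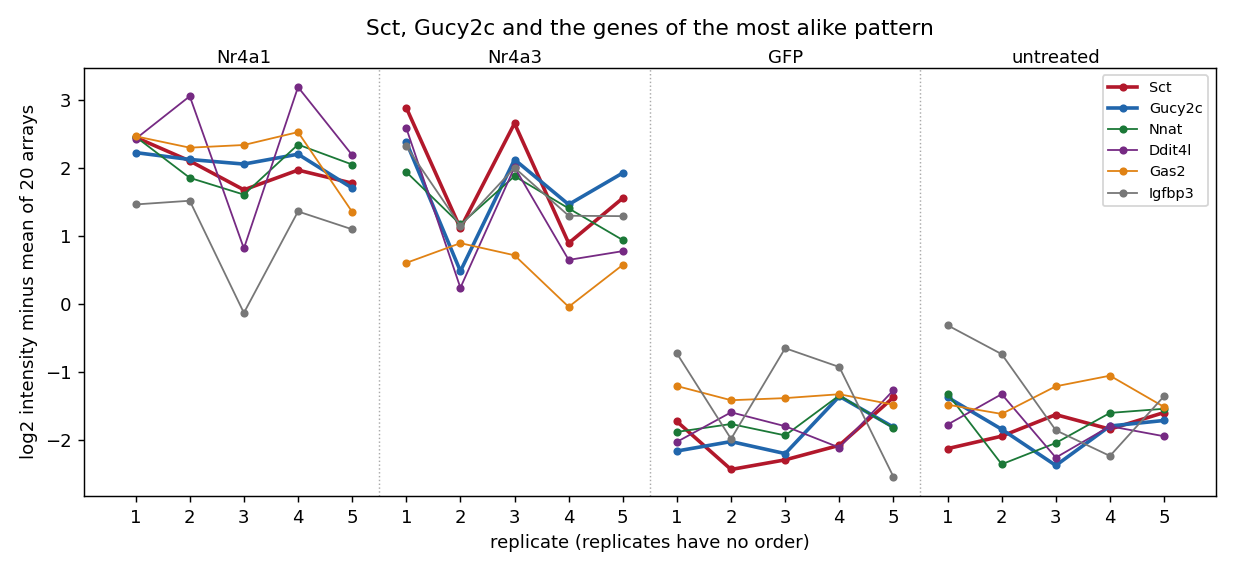
Log2 intensity minus the mean of the 20 arrays for Sct, Gucy2c and the 4 other genes of the most similar pattern, by array and group. All 6 lie above 0 in the Nr4a1 and Nr4a3 arrays except Gas2 in Nr4a3 replicate 4 (-0.04) and Igfbp3 in Nr4a1 replicate 3 (-0.13) and below 0 in the GFP and untreated arrays, and Gas2 is lower in the Nr4a3 than in the Nr4a1 arrays.

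Promoters from RefSeq (build GRCr8, 250 bases before to 50 after the gene start) were at hand for 6 of these 9 genes: Sctr, Guca2a, Guca2b, Ddit4l, Gas2 and Igfbp3. None was at hand for Sct, Gucy2c or Nnat, so these genes were not searched. The 6 promoters were searched on both strands for AAAGGTCA, the site that NR4A receptors bind as monomers. Only Gas2 of these 6 held it, as did 477 of 33469 promoters (1.43%). It is shown because the labels name such receptors, and the letters are a description, not a bound site. The window is chr1:110618353-110618440 on the plus strand, with the match, which reads AAAGGTCA on the minus strand, in capitals. The match starts 128 bases before the gene start.

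Gas2: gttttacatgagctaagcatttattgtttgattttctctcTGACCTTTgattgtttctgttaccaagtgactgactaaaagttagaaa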

How the data were processed

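The authors deposited intensity per probe set on a linear scale, made with RMA per the submitters' processing notes, which give no version here. The member rule speaks of log2, but the deposited values are not log2, so they were transformed here. Gene symbols were read from GEO's platform table. A gene with several probe sets was represented by the one brightest on average, giving 14217 genes. limma 3.58.1 in R 4.3.3 fitted 1 mean per group to 20 arrays, with two-sided moderated tests and Benjamini-Hochberg adjustment over all genes, called under 0.05. Intervals are at 95%. The fit was tested on simulated data. The number of arrays limits precision, and detection p-values were not used here.

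The members and lists were chosen with earlier results of these data known, so no list is independent evidence. Named genes are the 5 members, the 5 genes nearest in pattern to Sct and to Gucy2c, and from each pathway list the 4 lowest adjusted p-values in either comparison with GFP. Cftr, Slc4a4, Prkg2, Cdh17, Cuzd1 and Tff2 fall outside that rule and were chosen after their values were seen. Alternatives were fits to only the arrays compared, a replicate block, trended and robust variance, array weights, repeated quantile normalization, centring, a filter on dim genes, all or averaged probe sets, a pseudocount of 16, and each array left out.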

Additional observations from a re-analysis of the deposited data

How the results depend on the processing

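The differences of Sct and Gucy2c from GFP kept their sign in each of 30 alternatives: Sct lay between 3.57 and 4.12 for Nr4a1 and between 3.40 and 4.03 for Nr4a3, and Gucy2c between 3.73 and 4.11 and between 3.35 and 3.96. No member was called between Nr4a1 and Nr4a3 or between GFP and untreated arrays in any of them, and the filter on dim genes gave no value for Guca2a and Guca2b. Signs turned for small differences. Without Nr4a3 replicate 4 the Sct difference (Nr4a1 minus Nr4a3) was -0.057, without Nr4a3 replicate 2 -0.00, without untreated replicate 1 the Gucy2c difference (GFP minus untreated) was 0.020, and without Nr4a1 replicate 4 the Guca2a difference (Nr4a1 minus Nr4a3) was -0.088. With single arrays left out, Sct (Nr4a1 minus Nr4a3) ran from -0.06 to 0.44, Gucy2c (GFP minus untreated) from -0.23 to 0.02, Sctr (Nr4a3 minus GFP) from -0.33 to 0.15 (the highest without GFP replicate 2), and Guca2a (Nr4a1 minus Nr4a3) from -0.09 to 0.10, and the last was -0.013 with array weights. Counts of called genes moved more. For Nr4a1 against GFP, 1239 became 2853 with only the arrays compared, 3576 with array weights, and 742 (without Nr4a1 replicate 1) to 2714 (without Nr4a3 replicate 2) with single arrays left out. For Nr4a3 against GFP, 274 became 122, 1027, and 127 (without Nr4a3 replicate 1) to 527 (without Nr4a3 replicate 2), with 144 without Nr4a3 replicate 3 and 158, 137, 160 and 130 without GFP replicates 1, 2, 3 and 5. For Nr4a1 against Nr4a3, 90 became 1, 274, and 43 (without Nr4a1 replicate 1) to 133, with 47 without Nr4a1 replicate 4 and 55 without Nr4a3 replicate 4. The labels do not say whether the replicate numbers pair the samples. Correlations of same-numbered deviations ran from -0.30 to 0.40, which does not settle it. The replicate block gave 1088, 204, 70 and, for GFP against untreated, 0 genes, and changed no call of a member. The fit shares 1 estimate of each gene's spread over the 4 groups. Leaving out Nr4a3 replicate 2 therefore changed the SE of Nr4a1 minus GFP and not the difference. For Adcy6 that difference stayed at 0.67, with an SE of 0.26 in the main fit and 0.08 without the array. The cause of the other shifts in the counts was not tested.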
